A study of Sus scrofa with 3 samples.

Results

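The comparison described here set cells pretreated with the bacterium Lactobacillus plantarum TL2766 against cells without lactobacilli, after both had met the same Escherichia coli material. It rests on the TL2766+ETEC array and the ETEC array, which are 2 of the 3 arrays of the study and were taken by their titles. All 43603 probes that are not controls entered. Of these, 13897 had a gene symbol, for 6514 genes, 3968 were named only by a description, and 25738 had neither.

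All arrays measured total RNA of PIE cells, a pig cell line that the labels call intestinal epithelial and that is not transformed. Its source was the gut of a newborn piglet. Cells of every group grew for 3 days, and all were later exposed for 12 h to ETEC PAMPs, the pathogen-associated molecular patterns of enterotoxigenic E. coli. The ETEC group received no lactobacilli. The TL2766+ETEC group was kept with L. plantarum TL2766 for 48 h and washed before the PAMPs, and the TL2937+ETEC group was treated in the same way with L. jensenii TL2937. Each group was 1 culture on 1 array, and unchallenged cells were not analysed here. Because both arrays compared were of cells exposed to the PAMPs, a changed answer to the PAMPs and a direct effect of the bacteria cannot be told apart. No 48 h step or wash was recorded here for the ETEC group. Time in culture and washing therefore cannot be told apart from the bacteria either. No spread between cultures could be measured, so no difference below has a p-value or a standard error.

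Enterotoxigenic E. coli cause diarrhoea in young pigs. Cells sense molecules of such bacteria through receptors such as TLR4, which signal through the transcription factor NF-kB to genes of cytokines, chemokines and adhesion molecules. Lactobacilli are lactic acid bacteria that are given as feed additives, and their cell walls are sensed by receptors of the same family.

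The arrays carried DNA probes of 60 bases, and the sequences of a few probes that carry the main differences are shown because a probe, not a whole gene, was measured. They comprise the probes of somatostatin, follistatin and tropomyosin, a probe known only by its description as an atrial natriuretic peptide clearance receptor, and the 3 brightest differing probes without a gene name. No motif was searched, so no base is in capitals.
SST: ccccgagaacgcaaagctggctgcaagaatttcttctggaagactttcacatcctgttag
FST: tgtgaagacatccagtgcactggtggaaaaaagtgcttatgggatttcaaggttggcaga
TPM1: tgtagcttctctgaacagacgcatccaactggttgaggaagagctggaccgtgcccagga
Clearance receptor: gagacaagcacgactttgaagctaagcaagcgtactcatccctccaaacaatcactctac
A_72_P307303: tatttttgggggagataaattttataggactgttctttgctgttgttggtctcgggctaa
A_72_P358028: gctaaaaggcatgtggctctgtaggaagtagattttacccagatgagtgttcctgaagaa
A_72_P028831: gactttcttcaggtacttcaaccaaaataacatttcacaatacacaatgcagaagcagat

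Values are scaled intensities, that is, the processed brightness of a probe divided by the 75th percentile of its array and multiplied by one constant for all arrays. A log2 difference is the log2 value on the TL2766+ETEC array minus that on the ETEC array, so that 1 means 2-fold higher. A gene was taken as measured where the scanner software marked its brightest probe as well above background on both arrays. The 75th percentile of the raw processed intensity lay between 459 and 503 on the 3 arrays, and 60.9% to 62.5% of the spots were well above background. The lowest detected scaled intensity was between 11.6 and 12.9. Over 25 probes printed as 5 spots, the median standard deviation of the log2 difference was 0.078 and the highest 0.38, which covers spots and not cultures.

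The cells went against their epithelial label in several defining markers. Keratin 8 (KRT8) gave 19.9 on the ETEC array and 23.9 with TL2766, close to the lowest detected signal. Keratin 18 (KRT18), the splicing factor ESRP1 and all 18 probes of EPCAM, an epithelial adhesion molecule, were not well above background on either array. E-cadherin (CDH1) was at 17.2 on the ETEC array and not well above background on the other. Some genes of epithelia were clearly detected, among them the junction proteins CLDN1 (3054 and 2192) and OCLN (1141 and 967) and the membrane mucin MUC13 (600649 and 581074).

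Genes that mark endothelium, the lining of blood vessels, were well above background on both arrays. PECAM1 gave 86718 and 85368 on the ETEC and TL2766+ETEC arrays, VE-cadherin (CDH5) 60391 and 55877, ESAM 19141 and 20308, and CLDN5 12619 and 13518. Of the 11 endothelial markers on the array, 9 were measured on both arrays. VWF was at 22.7 on the ETEC array and not well above background on the other, and ERG was not well above background on either. The leukocyte markers PTPRC and SPI1 were also not well above background on either array, while CD14, which binds bacterial lipopolysaccharide, gave 623 and 741. Bright signals were not limited to endothelial markers. Of the fibroblast markers, VIM gave 251749 and 252338 and ACTA2 53731 and 47431. COL1A2, DCN, LUM, PDGFRB and THY1 were dim, at most 82.9 on either array. The muscle marker ACTA1 gave 24644 and 21400, while MYOD1 and TNNC1 were not well above background on either array. In a bulk sample, fewer cells of a type and less RNA per cell cannot be told apart. The cells are called PIE cells below, without a cell type. The plot of marker signals shows the levels of the epithelial, endothelial and leukocyte markers.

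**Figure D1:**
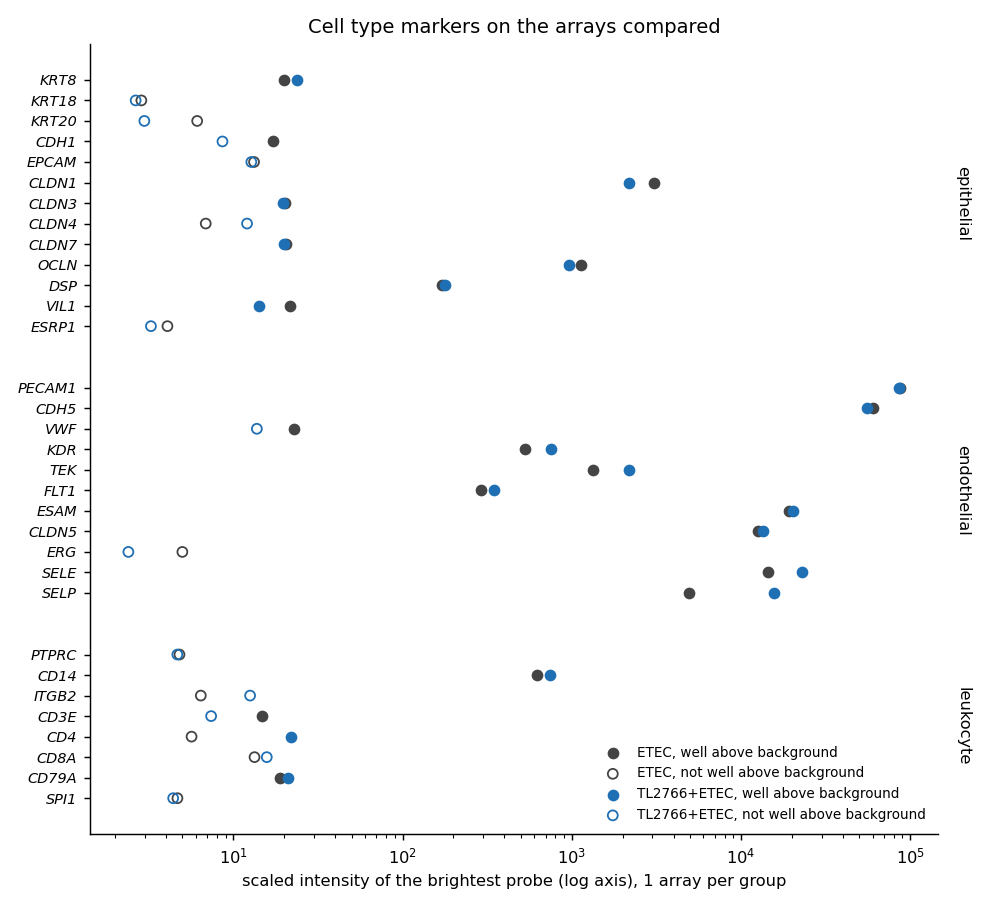
Scaled intensity of the brightest probe of epithelial, endothelial and leukocyte markers (log axis) without lactobacilli (grey) and with TL2766 (blue), 1 array each, with open circles for genes not well above background. KRT18, EPCAM and ESRP1 are open on both arrays, while PECAM1 and CDH5 are among the brightest markers.

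Most genes had nearly the same signal on both arrays. Of 4936 genes measured on both, 82.9% were within 1.2-fold, the median log2 difference was 0.0011, and the 5th and 95th percentiles were -0.36 and 0.34. With TL2766, 16 genes (0.324%) were higher by 2-fold or more, and 12 (0.243%) were lower by as much. Counted as probes, with or without a name, 87 of 25617 (0.34%) were at least 2-fold higher and 88 (0.344%) lower.

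Differences of 2-fold were mostly at dim probes. Of the 28 genes, 19 were under 100 on both arrays, and only 6 lay above the median detected signal (254) on both. Those 6 were SELP, SMOC1, FST and IGFBP6, higher with TL2766, and STRA6 and TPM1, lower. Another background correction, normexp, was run with an offset of 50 added to every signal, which by design shrinks the differences of dim probes. With it, 5 genes were at least 2-fold higher and 2 lower. The 5 were SST, SELP, SMOC1, FST and IGFBP6, and the 2 were STRA6 and TPM1.

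**Figure D2:**
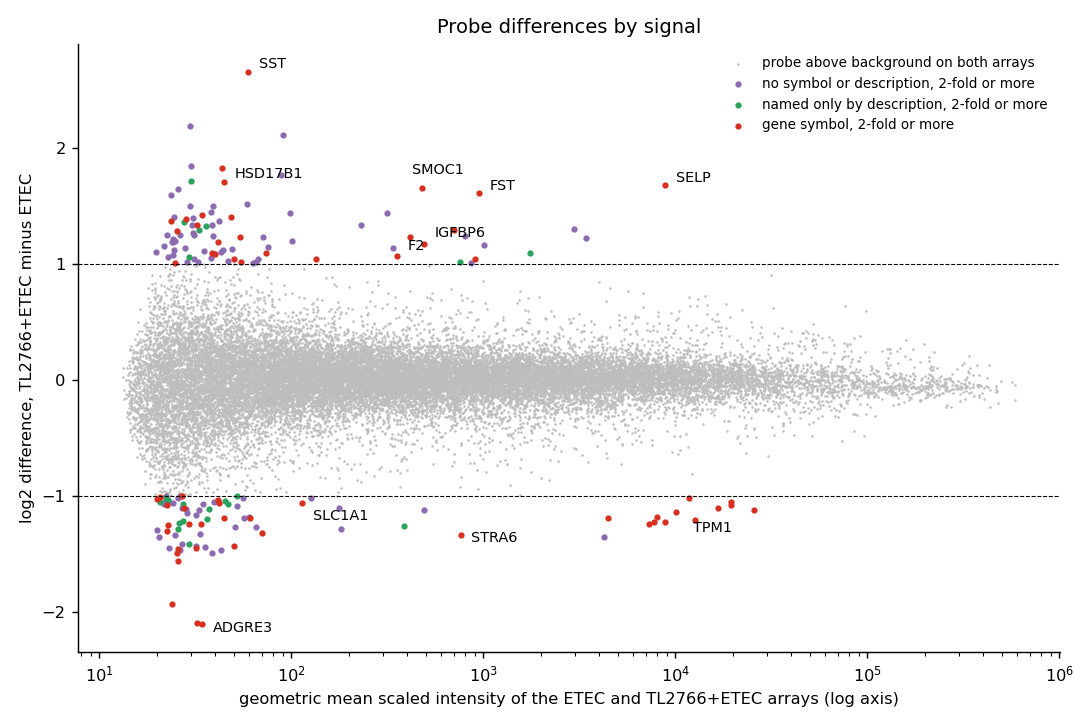
Log2 difference of each probe well above background on both arrays, against the geometric mean of its scaled intensities (log axis), with dashed lines at 2-fold and colours for probes at least 2-fold apart by how they are named. Coloured points lie mainly at dim signals on the left, while SELP and the group of TPM1 probes stand apart at bright signals.

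The genes that were higher with TL2766 included secreted signals and their binding proteins. Somatostatin (SST), a peptide hormone that inhibits the release of other hormones, gave 23.8 on the ETEC array, 107.5 with TL2937 and 149.7 with TL2766. It was 6.30-fold higher with TL2766 than without lactobacilli, a log2 difference of 2.66 that became 1.08 with normexp. The second SST probe, whose sequence is shown above, gave 23.0, 55.7 and 81.7, a log2 difference of 1.83. SST was thus dim on the ETEC array and brighter on both lactobacillus arrays.

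Follistatin (FST), which binds and neutralises activin, gave 544 on the ETEC array, 1347 with TL2937 and 1658 with TL2766. The difference was 3.04-fold, and the other FST probe had a log2 difference of 1.29. SMOC1, an extracellular protein known to antagonise bone morphogenetic proteins, gave 272, 835 and 852 in the same order, 3.14-fold higher with TL2766. IGFBP6, which binds insulin-like growth factors, gave 327, 954 and 736, and its 2 other probes had log2 differences of 1.23 and 0.038. These genes were also higher on the TL2937+ETEC array, which shares the ETEC array as its control.

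P-selectin (SELP), an adhesion molecule that captures leukocytes and platelets, was the brightest of the genes that were 2-fold higher. It gave 4943 on the ETEC array and 15777 with TL2766, 3.19-fold higher, and 15791 with TL2937. Prothrombin (F2), the precursor of thrombin, gave 245 and 514, and 533 with TL2937. Both genes had 1 measured probe.

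The other genes that were 2-fold higher were dim on the ETEC array, those named here at 16.3 to 35.1. The steroid dehydrogenase HSD17B1, which makes estradiol, gave 24.6 and 80.3, and 39.1 with TL2937. TRHR, the receptor of thyrotropin-releasing hormone, gave 17.5 and 45.7, and NDP, a ligand of the Wnt receptor FZD4, 27.4 and 62.5. They were similar with TL2937, at 48.2 and 67.9. The ammonia channel RHCG and the signalling adaptor SHC3 had log2 differences of 1.09 and 1.00.

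A few dim genes were higher with TL2766 and not with TL2937. NCF1, a subunit of the phagocyte NADPH oxidase, gave 16.3 on the ETEC array and 39.6 with TL2766, and it was not well above background with TL2937. The sulfotransferase GAL3ST2 gave 35.1 on the ETEC array, 22.3 with TL2937 and 82.6 with TL2766. ARHGEF39, a guanine nucleotide exchange factor, gave 20.2, 16.6 and 51.0 in that order. GFAP had a log2 difference of 1.09, but its other probe was at -0.68. With 1 array a group, none of these differences between the strains was tested.

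Tropomyosin 1 (TPM1), which winds along actin filaments, was the brightest gene that was 2-fold lower. Its brightest probe, shown above, gave 38046 on the ETEC array, 16354 with TL2937 and 17501 with TL2766, 2.17-fold lower. All 20 other measured probes of TPM1 were lower too, with log2 differences from -1.24 to -0.75. STRA6, a membrane receptor that takes up retinol, gave 1208, 452 and 479.9 in the same order. Its 2 other probes did not follow together, at -0.59 and 0.095.

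The glutamate transporter SLC1A1 gave 165 on the ETEC array and 78.9 with TL2766, and 69.4 with TL2937. Its 3 other measured probes were lower as well, from -1.56 to -0.72. MYOZ2, a protein of the muscle sarcomere, was dim, at 60.3 and 28.9, with 5 other measured probes between -1.30 and -0.32. Of its 12 probes, 7 were well above background on the ETEC array and 6 with TL2766. The difference at its brightest probe was -0.19 with normexp. IRS1, the docking protein of the insulin receptor, gave 92.1 and 40.5, and 41.5 with TL2937. Of the Wnt pathway, the secreted inhibitor SFRP5 (82.5 and 30.6) and the transcription factor LEF1 (38.4 and 19.2) were lower, each at 1 dim probe. With normexp their log2 differences were -0.52 and -0.27.

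The remaining genes that were 2-fold lower had 1 dim probe each. ADGRE3, an adhesion receptor of the G protein-coupled family, gave 71.0 on the ETEC array and 16.5 with TL2766, 4.31-fold lower. NAALADL1, a peptidase, gave 42.7 and 15.2, ZNF831 28.4 and 13.9, and MAB21L1 40.4 and 18.8. LRRC71 gave 51.9 on the ETEC array and 22.0 with TL2766, and 47.3 with TL2937. On the TL2937+ETEC array, ADGRE3 and ZNF831 were not well above background.

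**Figure D3:**
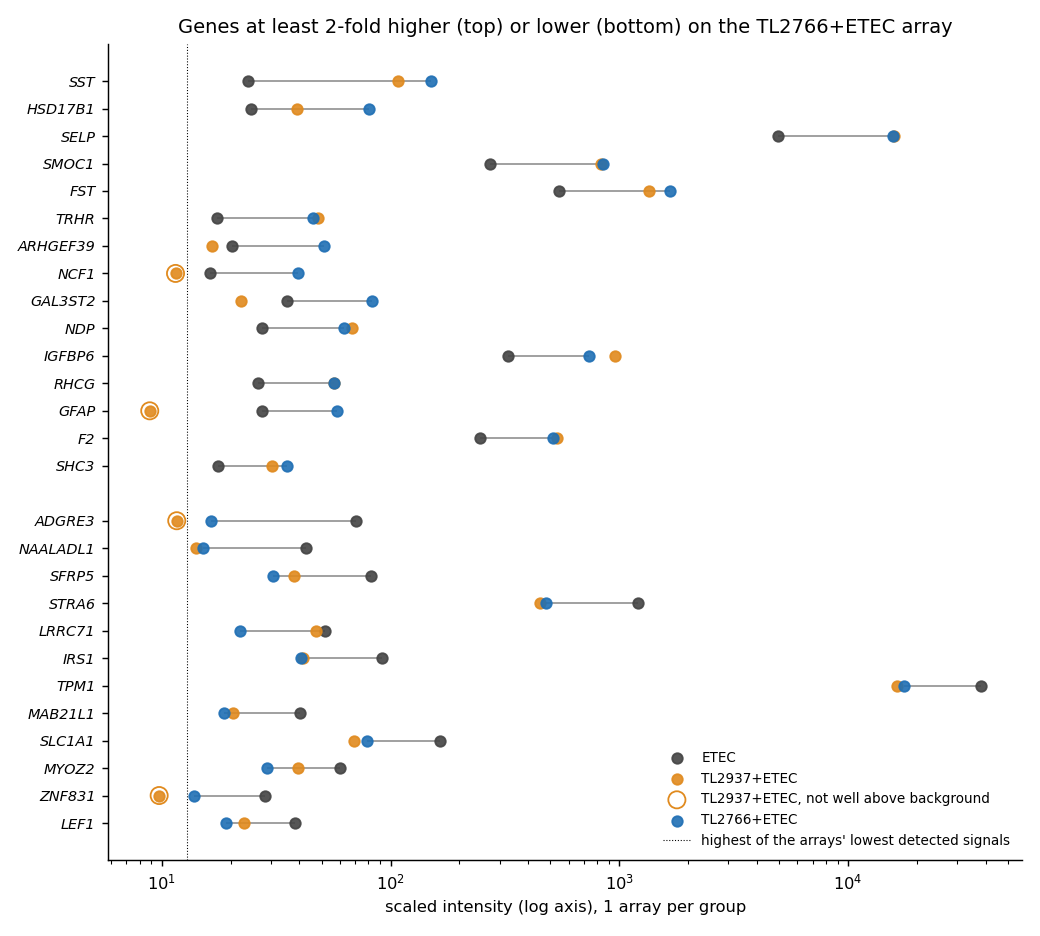
Scaled intensity (log axis) of 27 of the 28 genes that were at least 2-fold higher (top) or lower (bottom) on the TL2766+ETEC array (blue) than on the ETEC array (grey), with the TL2937+ETEC array (orange) side by side, 1 array each. SELP, SMOC1, FST and TPM1 lie at bright signals with both lactobacillus arrays close together, while most genes lie below 100.

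Probes named only by their description gave 7 that were at least 2-fold higher (0.289% of 2418 measured) and 14 lower (0.579%). The bright ones were few. A probe described as integrin beta of the pig, of the family of receptors that tie cells to matrix, gave 1197 on the ETEC array and 2546 with TL2766, and 2773 with TL2937. A probe with the symbol ITGB3, an integrin beta chain, gave 630.0 and 1299, a log2 difference of 1.04. The brighter ITGB3 probe, at 499171 on the ETEC array, differed by -0.012, so the probes of that gene did not go together.

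A probe described as serine protease 23 gave 529.6 on the ETEC array and 1067 with TL2766, and 1133 with TL2937. The described clearance receptor, which removes natriuretic peptides from the cell surface, was 2.39-fold lower, at 599 on the ETEC array, 278 with TL2937 and 250.5 with TL2766. The other 18 described probes that differed 2-fold were all dim, at most 73.4 on either array. Those described as SETD2, myosin heavy chain and desmin had log2 differences of -1.41, -1.23 and -1.04. The bright probe with the symbol DES, which stands for desmin, gave 2531 and 2181, a difference of -0.21. Probes described as TMPRSS11D, a transmembrane protease, and as a reverse transcriptase were higher, at 1.33 and 1.71. Their descriptions give partial matches of only 6% (dog) and 7% (pig), and that of the myosin probe 13% (rat), so these names are uncertain.

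Probes with neither a symbol nor a usable description made up 54 of the 87 that were higher and 38 of the 88 that were lower. Of these, 7 lay above the median detected signal on both arrays. Probe A_72_P307303 gave 1895 on the ETEC array and 4678 with TL2766, and probe A_72_P358028 gave 2256 and 5261. Probe A_72_P028831, made from a pig cDNA clone, gave 6818 and 2663. On the TL2937+ETEC array they gave 4871, 5564 and 2861. No gene name was found for them here, and their sequences are shown above.

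Several genes differed less than 2-fold but with every probe in the same direction. Of 1298 genes with at least 3 measured probes, 334 (25.7%) had all probes higher with TL2766 and 270 (20.8%) all lower, so that a shared sign alone is common. Probes of a gene share the same RNA and are not replicates. The genes below had the largest medians over their probes.

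Among the genes with every probe higher, the clock factor ARNTL had a median of 0.72 over 3 probes, and its brightest probe gave 418 on the ETEC array and 704 with TL2766. Matrix Gla protein (MGP), an inhibitor of calcification, had a median of 0.70 over 5 probes (11667 and 18238). CYP3A46, a cytochrome of drug metabolism, had 0.62 over 5 probes (25957 and 39827), and the related CYP3A29 rested on 2 probes, at 0.79 and 0.86. Signal shared between these close relatives was not tested. The angiopoietin receptor TEK had a median of 0.60 over 3 probes (1339.9 and 2189). With TL2937 the medians of ARNTL, MGP, CYP3A46 and TEK were 0.57, 0.36, 0.22 and 0.85.

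The cytokine IL6 had a median of 0.61 over 3 probes, between 0.52 and 0.62, and its brightest probe gave 1442 and 2071. The mitochondrial superoxide dismutase SOD2 had 0.48 over 7 probes (11709 and 15624), and C1H15orf48 had 0.53 over 4 probes (4242 and 6074). On the TL2937+ETEC array the medians of IL6, SOD2 and C1H15orf48 were -0.19, 0.17 and -0.012. The quinone reductase NQO1 and the heme-degrading HMOX1 had medians of 0.53 and 0.47, the chromatin protein HMGA1 0.49 and CDCA7 0.53. With TL2937 these were 0.34, 0.56, 0.46 and 0.73.

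Among the genes with every probe lower, insulin-like growth factor 1 (IGF1) had a median of -0.93 over 3 probes, and its brightest probe gave 1523 on the ETEC array and 914 with TL2766. The growth hormone receptor (GHR), which drives IGF1 in the liver, had -0.79 over 4 probes (224 and 132). Phospholamban (PLN), an inhibitor of the calcium pump of muscle, had -0.82 over 6 probes (483 and 277), and palmdelphin (PALMD) -0.92 over 3 probes (2195 and 1105). TPM1 and SLC1A1 had medians of -1.06 over 21 probes and -1.26 over 4. On the TL2937+ETEC array, the medians of IGF1, GHR, PLN and PALMD were -0.82, -0.49, -0.86 and -0.85.

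Ceruloplasmin (CP), a copper protein of plasma, had a median of -0.79 over 3 probes, but its brightest probe was at -0.061. FGL2, a fibrinogen-like protein, had -0.73 over 5 probes, and the selenium carrier SELENOP had -0.59 over 9 probes. RUSC2 had -0.62 and FAM189A2 -0.63, over 3 probes each. With TL2937 the medians of FGL2, SELENOP, RUSC2 and FAM189A2 were -0.89, -0.43, -0.61 and -0.27.

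**Figure D4:**
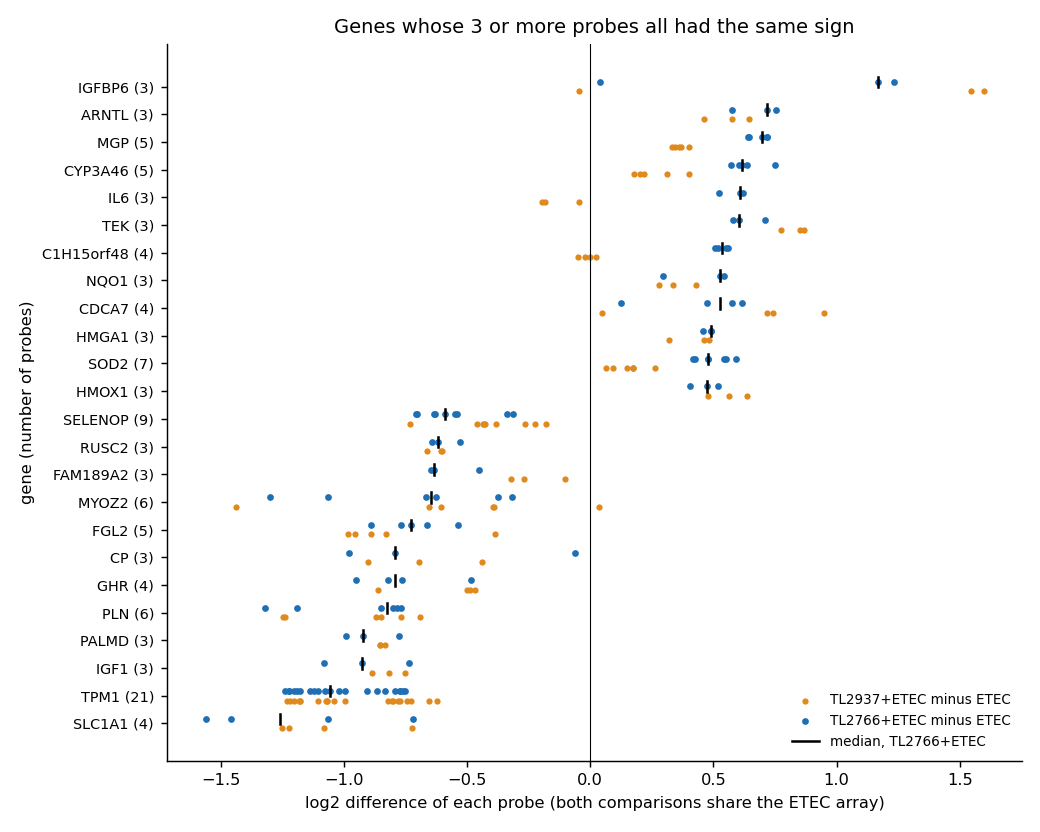
Log2 difference of every measured probe of the 24 genes with at least 3 probes of one sign and the largest medians, for TL2766+ETEC minus ETEC (blue, with a black bar at the median) and TL2937+ETEC minus ETEC (orange, probes well above background), which share the ETEC array. The blue probes of IL6, SOD2, C1H15orf48, MGP and CYP3A46 all lie to the right of their orange probes, and those of TEK and FAM189A2 to the left.

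Among 3366 genes above the median detected signal on both arrays, the next largest differences were below 2-fold. Purine nucleoside phosphorylase (PNP) gave 22978 on the ETEC array and 43022 with TL2766, 1.87-fold higher, and 36632 with TL2937. Cadherin-6 (CDH6) gave 4353 and 7408, the proteoglycan-cleaving protease ADAMTS4 1529 and 2501, and KIAA1211L 416 and 677. GPNMB gave 645 and 1054, but 2 of its 10 other probes went the other way, the lowest at -0.12.

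In the other direction, adrenomedullin (ADM), a peptide that widens blood vessels, gave 16253 on the ETEC array and 9279.9 with TL2766, 1.75-fold lower, and 9197 with TL2937. Bone morphogenetic protein 4 (BMP4) gave 1698 and 1030.2, with its other probe at the same difference, -0.72. The adhesion molecule ALCAM gave 1649.6 and 1022, the secretory kinase relative FAM20A 1209.5 and 707, and PLEKHF1 29180.1 and 18853. All of these had similar values with TL2937, at 1043 for BMP4, 977 for ALCAM, 691 for FAM20A and 19428 for PLEKHF1.

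Some genes were well above background on 1 of the arrays only, so that a difference is a bound against the lowest detected signal of the other array. EGR4, an immediate-early transcription factor, was at least 5.61-fold higher with TL2766, at 72.2. PHYHIP was at least 4.09-fold, the retinoic acid binding protein CRABP2 3.99-fold, the semaphorin SEMA6D 3.84-fold and erythropoietin (EPO) 3.47-fold higher. OTOR was at least 6.41-fold lower, SMCP 4.44-fold, the kinase PAK6 4.19-fold, ANKRD34C 3.27-fold and the gene spelled SCL10A2 on the array 3.11-fold. All 10 were dim, at most 75.4 on either array, and on the TL2937+ETEC array only PHYHIP, CRABP2 and SEMA6D were well above background.

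For pathways, a gene counted as higher or lower from 1.2-fold, the level that 8.1% of all measured genes reached upwards and 8.95% downwards. The members of the 37 lists were described by their counts and their median, beside the median of 0.0011 over all genes, and some genes stand in more than 1 list. The counts describe these 2 arrays. The medians of 14 lists changed sign under at least 1 other setting. These were the epithelial, enterocyte, leukocyte and enteroendocrine markers, TGF-beta, pattern recognition, adhesion, antimicrobial, steroid and retinoid, glycolysis, insulin-like growth factor, EGF, transport and apoptosis lists, so that no direction is read from their medians.

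Inflammatory mediators were spread in both directions. Of 17 measured genes of the cytokine and prostaglandin list, 7 were higher, 4 lower and 6 within 1.2-fold, with a median of 0.24, or 0.11 with the normexp correction. CSF2, a growth factor of granulocytes and macrophages, gave 61177 on the ETEC array and 95146 with TL2766, and the prostaglandin synthase PTGS2 gave 1393 and 2101. Their log2 differences were 0.64 and 0.59, against 0.17 and -0.16 with TL2937. The cytokine IL27 was dim (38.8 and 57.5), IL1A gave 7153 and 8993, and IL7, a growth factor of lymphocytes, was lower, at 3117 and 2043. TNF, a main inflammatory cytokine, was at 369 and 372.

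The RNA of NF-kB factors and pattern recognition genes differed little, and the activity of their proteins was not measured. All 12 measured NF-kB factors and regulators were within 1.2-fold, with a median of 0.075. Of all measured genes, 82.9% were within 1.2-fold too. The inhibitor NFKBIA gave 74113 and 79179, and the subunit NFKB1 1488 and 1494. Of 13 pattern recognition genes, 1 was higher, the peptidoglycan sensor NOD1 (676 and 900.2), and 1 lower, the dim TLR2 (22.7 and 17.2), with a median of -0.065. The TLR2 difference of -0.40 became -0.066 with normexp. TLR4, the receptor of lipopolysaccharide, gave 6320.4 and 6713, and its partner LY96 1992 and 2154.

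Chemokines had a median of -0.013, with 3 of 20 higher, 2 lower and 15 within 1.2-fold. CCL20, which attracts lymphocytes and dendritic cells, gave 983 and 1353, CCL4 3157 and 4190.0, and CCL5 57989 and 73664. CCL3L1 and CCL11 had log2 differences of -0.52 and -0.36. The neutrophil chemokine CXCL8 gave 177769 and 197875, a difference of 0.15.

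Of 28 measured interferon-stimulated genes, which restrict viruses, 5 were lower and 23 within 1.2-fold, and the median was -0.19. The median on the TL2937+ETEC array, with the same control, was -0.53. OASL gave 4963 on the ETEC array, 2585 with TL2937 and 3958 with TL2766, and OAS2 gave 122287, 81930.3 and 98392. IFI44 and PARP14 had differences of -0.36 and -0.31.

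The antigen presentation list (MHC class I and II) had a median of -0.12, with 1 of 22 genes higher and 4 lower. The class II chain SLA-DQA1 gave 1053 and 848, and SLA-DMA, which loads peptides, 507 and 409. RFX5, a factor that drives class II genes, gave 133 and 172 at its brightest probe, a difference of 0.37 that became -0.070 with normexp. The SLA genes are close relatives, and signal shared between their probes was not tested. In the complement list, 0 of 15 genes were higher and 2 lower, with a median of -0.13. Those were the central component C3 (1846 and 1352) and the C1 inhibitor SERPING1 (2126 and 1594).

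Antimicrobial and barrier genes had 3 higher and 1 lower of 9 measured, with a median of 0.097. Besides NCF1, PGLYRP2, which cleaves peptidoglycan, gave 319 and 492, and lactoferrin (LTF) was dim, at 21.8 and 30.5. The protease inhibitor SLPI was lower, at 38620.4 on the ETEC array and 27711 with TL2766.

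Of 16 measured coagulation and fibrinolysis genes, 9 were higher and 2 lower, with a median of 0.27. That median was 0.18 with normexp, 0.13 over genes above the median detected signal and 0.065 with no filter. Besides prothrombin, the higher genes included the tissue factor inhibitor TFPI (846 and 1294), the dim contact factor F12 (29.6 and 45.3), the protein C receptor PROCR (4344 and 6013) and the urokinase PLAU (8540.0 and 11291). The lower ones were thrombomodulin (THBD), which turns thrombin towards anticoagulation, at 9012 and 6295, and thrombospondin THBS1, at 113618 and 81218. The list thus held both clotting factors and their inhibitors among its higher members.

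Of 11 measured adhesion molecules, 4 were higher and 1 lower, with a median of 0.20, but of -0.0092 over those above the median detected signal. Next to SELP, E-selectin (SELE) gave 14546 on the ETEC array, 19503 with TL2937 and 22936 with TL2766. ALCAM was the lower member. Of the 9 endothelial markers measured, 4 were higher (SELP, TEK, SELE and KDR), none was lower, and the median was 0.25. SELP, SELE and PECAM1 stand in both lists, so the lists are not independent. PECAM1 (86718 and 85368), CDH5 (60391 and 55877), ESAM (19141 and 20308) and CLDN5 (12619 and 13518) were within 1.2-fold. The summed level of all 11 endothelial markers on the array, SELP and SELE included, was 200548 on the ETEC array, 210702 with TL2937 and 217087 with TL2766. The part of the endothelial markers in the coagulation and adhesion values was not tested.

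The list of TGF-beta, activin and BMP signals had 7 of 23 genes higher and 2 lower, around a median of 0.018 that changed sign with spike-in scaling, normexp and the mean of all probes. The ligands differed in direction. TGFB3 gave 59.0 and 97.8, and the inhibin subunit INHA, which antagonises activin, 25.8 and 41.1, while BMP4 and TGFB2 were lower, TGFB2 at 2841 and 2202. The target gene ID1 was higher, at 7883 and 10696. The antagonists FST and SMOC1, given above, had the largest differences of the list.

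The Wnt list had a median of -0.051, with 1 of 9 genes higher (NDP) and 2 lower (SFRP5 and LEF1). The insulin-like growth factor list had 2 higher and 3 lower of 18, with a median of 0.054. IGF1, IRS1 and the binding protein IGFBP5 (105 and 73.5) were lower and IGFBP6 was higher. In the EGF list 1 of 8 was higher, the dim ligand TGFA (20.9 and 27.7), and the median was -0.018. The TGFA difference of 0.40 became 0.016 with normexp. Hormone and neuropeptide genes had 2 higher (SST and TRHR) and 2 lower of 7, with a median of -0.11. The lower ones were ADM and the somatostatin receptor SSTR1, at 49.5 and 36.8.

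Enteroendocrine markers are given because somatostatin is also made by hormone cells of the gut. Of 8 on the array 5 were measured, 2 higher (SST and CHGB) and 1 lower (SCG2), with a median of 0.18 that became -0.040 with normexp and -0.093 with the mean of all probes. CHGB, at 0.27, also changed sign, to -0.072 and -0.093. Chromogranin A (CHGA), which fills secretory granules, gave 60798 and 62070.0 at its brightest probe. Only 1 of its 3 probes was well above background on each array. Glucagon (GCG) and the factor NEUROD1 were not well above background on either array. The summed level of all 8 markers on the array was 61116 and 62462, nearly all of it from the 1 bright CHGA probe. Their part in the SST value was not tested.

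In the list of actin and contractile genes, 1 of 15 was higher, 3 were lower and 11 within 1.2-fold, with a median of -0.17. Besides TPM1, vinculin (VCL), which links actin to adhesion sites, gave 41667 on the ETEC array, 29415 with TL2937 and 31688 with TL2766, and calponin CNN2 27632, 20082 and 22053. The brightest probe of the myosin kinase MYLK gave 21624 and 27773, but its 9 measured probes ran from -1.24 to 0.42 and their mean was -0.30. Muscle markers had 1 higher (CKM, at 0.35, or 0.0046 as the mean of its 5 probes) and 1 lower (MYOZ2) of 7 measured, with a median of -0.20. The summed level of all 12 muscle markers on the array was 43750.1 and 39527. The part of that sum in the TPM1 value was not tested.

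In the list of extracellular matrix and proteases, 4 of 18 genes were higher and 3 lower, with a median of -0.086. The collagen COL21A1 was dim, at 37.8 and 71.1, and the collagen chain COL1A2 gave 41.9 and 28.5. The collagen cross-linking enzyme LOX gave 50216 and 39991. Fibroblast markers had 2 of 7 lower and none higher, with a median of -0.095. Junction genes had 1 of 13 lower, CLDN1, and a median of -0.042. Epithelial markers had 1 higher (KRT8) and 2 lower (VIL1 and CLDN1) of 7 measured, with a median of -0.043 whose sign turned under quantile and cyclic loess normalization. KRT8 and VIL1 were dim, VIL1 at 21.5 and 14.2, and with normexp their log2 differences were 0.072 and -0.080.

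Of 20 mitosis genes, 6 were lower, 1 was higher and 13 were within 1.2-fold, with a median of -0.21, against 0.043 with TL2937. CENPF, a protein of the kinetochore, gave 933 on the ETEC array, 977 with TL2937 and 716 with TL2766, CDC20 214, 225 and 172, and the motor KIF20A was dim, at 41.4, 35.5 and 26.1. ARHGEF39 was the higher member. Of 6 measured DNA replication genes, 2 were higher and 4 within 1.2-fold, with a median of 0.18. The higher ones were the helicase subunit MCM3 (258 and 316) and the primase PRIM1 (806 and 979).

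Immediate-early genes, which respond fast to stimuli, had 1 higher and 4 lower of 12, with a median of -0.13. EGR1 was dim, at 64.8 and 40.1. The matricellular genes CTGF and CYR61 gave 26083 and 17902, and 93084 and 76021, both lower. The factor KLF2 was higher, at 1120.5 and 1512.

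Cholesterol synthesis had 2 of 14 genes higher, HSD17B7 (684 and 998) and SQLE (3603 and 4582), and a median of 0.12. Steroid and retinoid genes had 4 higher and 3 lower of 15, with a median of 0.051. Next to HSD17B1 and STRA6, the nuclear receptor NR0B1 gave 59.1 and 97.9, and the cortisol-forming HSD11B1 71.7 and 46.6, all dim except STRA6. Glycolysis and hypoxia genes had 2 higher and 3 lower of 18, with a median of -0.027. VEGFA, a growth factor of vessels, gave 1696 on the ETEC array, 1715 with TL2937 and 2265 with TL2766.

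Transporters of amino acids, glucose and water had 3 higher and 2 lower of 17, with a median of 0.027. The water channel AQP3 gave 142 and 83.9, next to SLC1A1 and RHCG above. Targets of the antioxidant factor NRF2 had 3 of 18 higher, NQO1, HMOX1 and GCLC, and a median of 0.079. The enterocyte markers, genes of mature absorptive cells, had a median of 0.075, which changed sign in 5 of 11 alternatives, over the 3 measured of 8, with none past 1.2-fold, and APOA1 at 31484 and 27122. The 2 leukocyte markers measured, of 9, were within 1.2-fold, with a median of 0.20, or -0.023 with normexp.

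The unfolded protein and integrated stress list had 1 of 13 lower, the secreted glycoprotein STC2, and a median of -0.033. Apoptosis and p53 genes had 2 of 16 lower, CCNG1 (26761 and 20392) and the death receptor FAS, and a median of -0.06. The FAS difference of -0.26 became 0.15 as the mean of its 2 probes. Ribosomal protein genes had a median of -0.067, and 26 of 27 were within 1.2-fold. The exception was RPS6, at 89162 on the ETEC array, 81589 with TL2937 and 61755 with TL2766. All 12 reference genes were within 1.2-fold, with a median of -0.056.

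**Figure D5:**
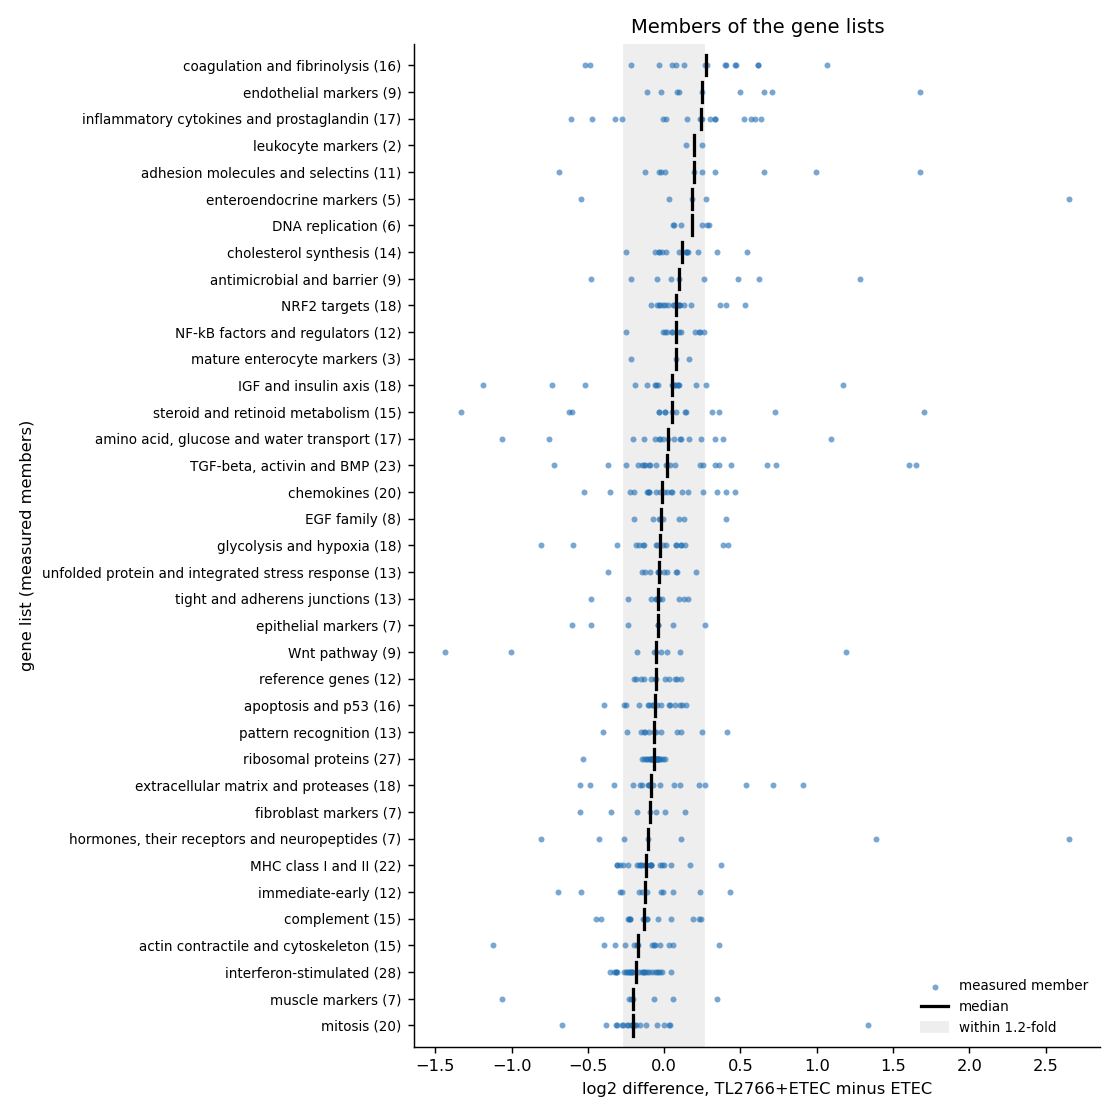
Log2 difference (TL2766+ETEC minus ETEC) of each measured member of the gene lists (points), with the list median as a bar and a grey band for differences within 1.2-fold. The medians lie between -0.21 (mitosis) and 0.27 (coagulation and fibrinolysis), and single members such as SST, SELP and TPM1 lie far outside their lists.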

How the data were processed

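Total RNA of PIE cells from 3 cultures, 1 per group, was labelled with Cy3 and hybridised to 1-colour Agilent pig arrays of 60-base probes. Per the file headers, the deposited intensity values were extracted with Agilent Feature Extraction 10.7.3.1, and the processed intensity is background-subtracted. Later steps of the authors are not given in the sources used here. Their table of values held the same intensity values, linear, uncentred and rounded, within 0.496%, with medians of 37, 40.9 and 38.8 for ETEC, TL2937+ETEC and TL2766+ETEC in turn.

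Control spots and outlier spots (4 to 9 an array) were left out; 0 spots were saturated. Spots of a probe were averaged as log2 of the processed intensity minus the 75th percentile of its array. Scaled intensities were multiplied back by 480.8. Of several probes for 1 gene, the one with the largest mean over the 3 arrays stood for it. Symbols came from the array (9937 probes) and, by accession (1434), gene identifier (2453) or synonym (73), from the RefSeq table of Sscrofa11.1. Its coordinates were not used. A difference counted as 2-fold only with the scanner's mark of well above background on both arrays.

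With 1 array a group there was no test. The position on the slide, the culture and the group cannot be told apart, and the labels name no date or other batch. The text names up to 12 genes a direction by size among the 2-fold genes, the described probes, the genes with at least 3 probes of one sign and the genes above the median detected signal. It also names 5 bounds a direction and, of each list, up to 4 members of the largest difference. Markers, other genes named and unnamed probes were picked with their values in view. The members and lists were chosen with earlier results of these data known. Some genes that the rule or the marker lists name are not reported here. The number of arrays limits the precision.

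Alternatives were the normexp background correction with an offset of 50, median, quantile, cyclic loess and spike-in scaling, other filters and folds, the mean of all probes, and the authors' table. The scripts were tested on simulated data. Normalization ran in limma 3.58.1 under R 4.3.3, and all else in Python 3.11.15 with pandas 2.3.3 and numpy 2.4.6.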

Additional observations from a re-analysis of the deposited data

How the results depend on the processing

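No paired analysis was possible because the groups share only replicate number 1. Of 168 named genes, 9 changed sign under at least 1 alternative (APOA4, CCK, CD79A, CHGB, CP, FAS, MYLK, RFX5 and SLC5A1), in 11 of 1783 values, and 0 of these were 2-fold apart. Of 126 named genes past 1.2-fold, 21 came within it with normexp. With normexp, 5 genes were at least 2-fold higher and 2 lower (71.4% higher, against 57.1%), and 1 and 1 described probes. That correction gave list medians of -0.10 for enterocyte, 0.16 for endothelial, -0.023 for leukocyte, -0.072 for muscle and -0.040 for enteroendocrine markers, 0.11 for cytokines, 0.18 for coagulation and 0.10 for adhesion. Above the median detected signal, 4 genes were higher and 2 lower (66.7% higher), and 2 and 0 described probes. The medians there were -0.36 for epithelial, -0.22 for enterocyte, -0.064 for muscle and 0.030 for enteroendocrine markers, 0.031 for pattern recognition, 0.13 for coagulation and -0.0092 for adhesion. With the scanner's weaker mark of a positive and significant signal, 87 genes were higher and 133 lower (39.5% higher), and 68 and 117 described probes, with medians of -0.070 for enterocyte markers and 0.10 for coagulation. With no filter, 153 genes were higher and 274 lower (35.8% higher), and 129 and 251 described probes. The medians were then -0.38 for enterocyte and 0.099 for endothelial markers, 0.16 for cytokines, 0.065 for coagulation, 0.10 for adhesion, -0.12 for antimicrobial and -0.019 for immediate-early genes. With the mean of all probes, the enterocyte median was -0.018 and the enteroendocrine one -0.093. At 1.5-fold, 71 genes were higher and 75 lower, and 47 and 55 described probes. At 3-fold these were 5 and 1, and 1 and 0. A filter or fold alters which features count, and the normexp offset by design shrinks the differences of dim probes. The cause of these changes was not tested beyond that. Spike-in scaling shifted all differences by 0.027 on the log2 scale. No replicate could be left out with 1 array a group, and signal near background limits the dim genes.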
